A study of Mus musculus with 12 samples.

Results

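The genes described here are 33 genes of DNA replication and mitosis, chosen by name from the annotation of a mouse gene expression array, out of 28908 genes that carried a probe. Replication and entry into S phase are covered by 12 of them and mitosis by 21. They were measured in medulloblastoma, a tumour of the cerebellum, of the Sonic Hedgehog (SHH) subgroup. A1G metastatic tumours (4 arrays) and A1G primary tumours (4 arrays) came from mice labelled Math1-cre;A1G;Ptch1+/-, and Ptch1het tumours (4 arrays) from mice with Ptch1+/- alone. All 3 groups therefore carry the heterozygous loss of Ptch1, the receptor that restrains SHH signalling. Math1-cre drives Cre recombinase in granule neuron progenitors, the cells from which this tumour arises. The labels do not expand A1G, and give neither the site of the metastases nor the age of the mice. The genotype named is the same for all A1G arrays, but its label is worded otherwise for metastatic replicates 2 and 3. Nothing says that the replicates came from separate animals, so the p-values measure the spread between these samples, which may be technical.

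A cell that divides first copies its DNA in S phase and then separates the copies in mitosis. E2F transcription factors switch on the replication genes at the start of S phase, among them the MCM proteins, which form the helicase that opens the double helix, and cyclin E, which with its kinase starts replication. Mitotic genes are expressed later, from G2 onward. Many of them carry a CHR element, by which a repressor complex holds them off early in the cycle, and CCAAT boxes, which bind the factor NF-Y. In the cerebellum SHH is the main mitogen of granule neuron progenitors, and these genes fall silent as the cells leave the cycle and become granule neurons.

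The split into replication and mitosis members was made by role, not by promoter. The promoters were searched for the CHR core, CCAAT and E2F sites. RefSeq promoter windows of GRCm38.p6, each with 250 bases before and 50 bases after a start given for the gene, were found for 26 members (27 windows). For 17 of the 26 members this start is also the first base of the gene in the RefSeq gene table. There was no match for Aurkb, Ccna2, Ccne2, Foxm1, Kif20a, Mcm4 and Tpx2. Exact matches were searched on both strands. TTTGAA, the core of the CHR element, stood in 11 of 16 windows of mitosis members (68.8%), in 1 of 11 windows of replication members (9.09%) and in 17.9% of the 32851 windows of all genes. All 11 mitosis windows with TTTGAA also held CCAAT, a pair found in 6.95% of all windows. An E2F site, searched as TTTCCCGC, TTTCGCGC, TTTGCCGC or TTTGGCGC, stood in 1 of 16 mitosis windows (6.25%), in 4 of 11 replication windows (36.4%) and in 2.26% of all windows. CCAAT alone was frequent in both kinds of member, with 14 of 16 mitosis windows (87.5%), 8 of 11 replication windows (72.7%) and 37.4% of all windows. A match describes these letters only and shows no binding.

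The 160 bases before the start are shown for 3 mitosis members and 2 replication members, because between them they hold all the elements searched. Each is written 5′ to 3′ on the strand of its gene, and capitals mark matches to TTTGAA (or TTCAAA on the other strand), CCAAT (or ATTGG) and the E2F sites. TTTGAA and an E2F site stand together only in the Cdk1 sequence. Cdk1, the kinase that drives mitosis, lies at chr10:69352913-69353072 (minus strand). Cdc20, which activates the ubiquitin ligase that starts anaphase, lies at chr4:118437344-118437503 (minus strand). Kif11, the motor that pushes the spindle poles apart, lies at chr19:37376222-37376381 (plus strand). Mcm5 and Mcm6, subunits of the helicase, lie at chr8:75109349-75109508 (plus strand) and chr1:128359706-128359865 (minus strand). In Mcm5 and Mcm6 a pair of E2F matches on opposite strands overlaps, so that the run of capitals is longer than 1 site.
Cdk1: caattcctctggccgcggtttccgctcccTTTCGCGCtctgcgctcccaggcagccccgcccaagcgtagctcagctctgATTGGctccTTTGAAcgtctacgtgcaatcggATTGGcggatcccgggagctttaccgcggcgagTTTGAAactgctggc
Cdc20: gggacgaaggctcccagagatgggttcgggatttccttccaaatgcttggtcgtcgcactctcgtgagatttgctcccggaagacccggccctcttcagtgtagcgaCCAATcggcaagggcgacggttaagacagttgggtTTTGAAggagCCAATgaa
Kif11: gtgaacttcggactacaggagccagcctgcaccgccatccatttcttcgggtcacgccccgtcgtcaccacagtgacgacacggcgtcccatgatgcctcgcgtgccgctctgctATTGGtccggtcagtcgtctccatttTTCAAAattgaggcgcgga
Mcm5: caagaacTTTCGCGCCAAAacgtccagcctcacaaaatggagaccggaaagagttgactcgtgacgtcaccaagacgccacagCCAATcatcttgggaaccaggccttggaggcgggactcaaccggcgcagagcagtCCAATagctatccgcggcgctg
Mcm6: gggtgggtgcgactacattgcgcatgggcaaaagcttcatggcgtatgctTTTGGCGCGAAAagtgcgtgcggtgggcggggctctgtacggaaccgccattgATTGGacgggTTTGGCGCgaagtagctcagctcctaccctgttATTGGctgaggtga

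Each level below is a log2 signal of 1 probe, and differences are on the log2 scale, where 1 is a doubling. A gene was tested when a probe of it lay above the array median, 7.05 on the log2 scale, on at least 4 of the 12 arrays. This held for 29 members, 12 of 12 in replication and 17 of 21 in mitosis, among 16724 genes tested. The mitosis members that did not pass were Ccnb2 (cyclin B2), Bub1 (a spindle checkpoint kinase), Cenpe and Kif20a (both mitotic motors). The probes of Ccnb2, Bub1 and Cenpe were above the median on 0 arrays, and that of Kif20a on 3. Among those tested, Ccna2 was above the median on 9 arrays (3 metastatic, 2 primary and 4 Ptch1het) and Ube2c on 7 (2 metastatic, 2 primary and 3 Ptch1het). On the other arrays their levels lay at or below the array median, and whether these exceeded background was not measured. Differences of these probes are given as measured, without a fold. Calls were made with limma at a Benjamini-Hochberg adjusted p under 0.05 over all genes tested. The 3 comparisons share groups, so their values for a gene are not independent of each other. With 4 arrays a group, their number limits the precision.

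**Figure D1:**
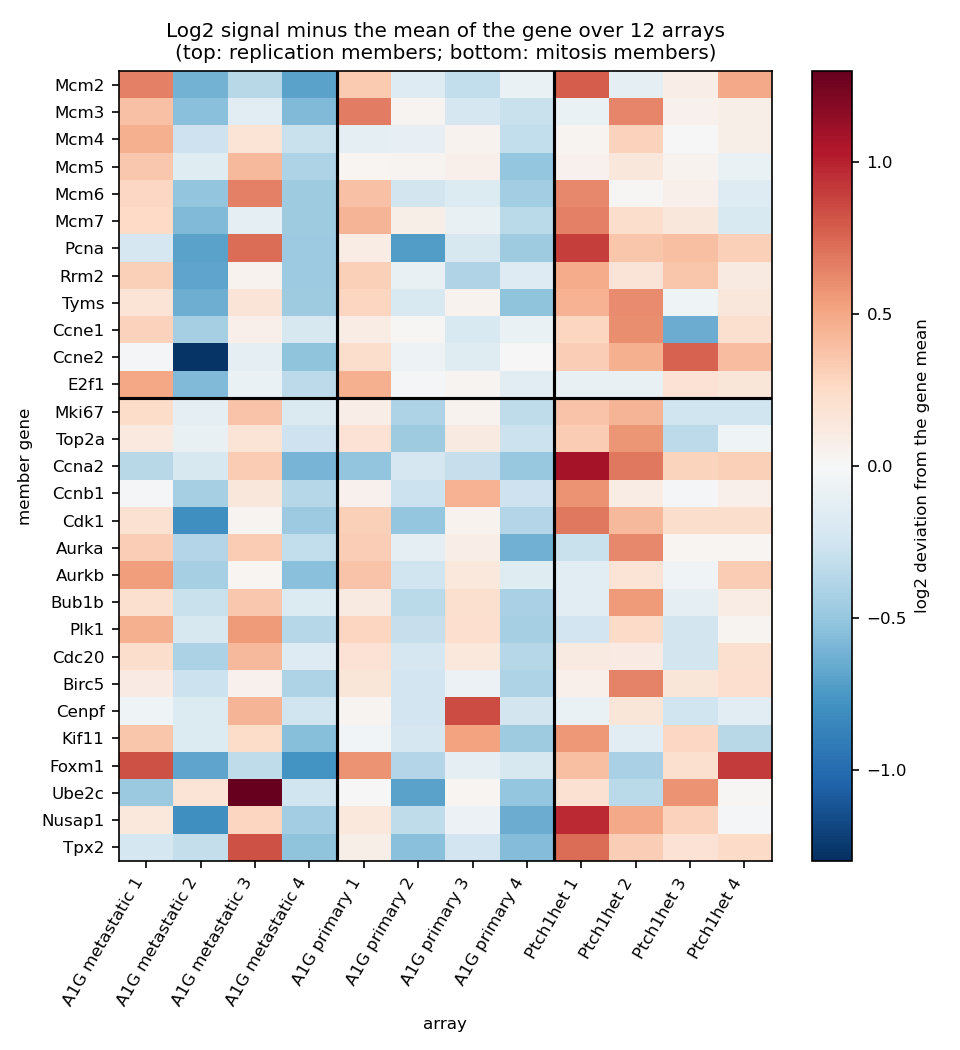
Log2 signal of each of the 29 measured members (rows, replication above mitosis) on each of the 12 arrays (columns, by group), as the difference from that gene's mean over the 12 arrays. In both A1G groups most mitosis members are on the low side on arrays 2 and 4 and on the high side on arrays 1 and 3.

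Metastatic tumours were set against primary tumours for which the labels name the same genotype to see how tumours at the 2 kinds of site differ. None of the measured cell cycle members passed the test: limma called 0 of 29, beside 5.22% of all genes tested, and 0 of 29 had an unadjusted p under 0.05, beside 17.8% of all genes (3 of 29 without metastatic replicate 1). No member separated the groups without overlap, which 13% of all genes did. Fitted over the 8 A1G arrays with the replicate number as a block, 1462 genes were called in place of 873, and again 0 of 29 members. Of the measured members, 16 lay above 0 and 13 below, while 40.6% of all genes lay above 0. This balance turned with single arrays, to 7 above and 22 below without metastatic replicate 3 and to 20 above and 9 below without metastatic replicate 2 or primary replicate 1. The median difference was -0.10 over the replication members and 0.07 over the mitosis members, beside -0.06 over all genes. With 1 array left out, these medians ran from -0.25 to 0.06 and from -0.08 to 0.17, on either side of 0.

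The proliferation marker Mki67, which encodes Ki-67, read 13.25, 12.89, 13.38 and 12.82 in metastatic tumours, 13.10, 12.61, 13.05 and 12.68 in primary tumours, and 13.37, 13.45, 12.74 and 12.75 in Ptch1het tumours. The 3 groups overlapped, and in each A1G group replicates 1 and 3 were the high ones. The metastatic minus primary difference was 0.23 (SE 0.21, 95% interval -0.22 to 0.67, adjusted p = 0.627). Within each of the 4 replicate numbers the metastatic array was higher, by 0.15, 0.29, 0.32 and 0.15, and with the number as a block over the 8 A1G arrays the adjusted p was 0.301. Members higher within all 4 numbers were Mki67, Plk1 and Bub1b, a spindle checkpoint kinase, 3 of 29 beside 13.7% of all genes. Members lower within all 4 were Mcm7, Ccnb1 and Cdk1, again 3 of 29, beside 18.8% of all genes. Top2a, the topoisomerase that untangles replicated DNA, differed by 0.10 (-0.36 to 0.56), and Plk1, a kinase of mitotic entry and spindle assembly, by 0.17 (-0.35 to 0.68). Among the subunits of the MCM helicase the differences ran from -0.27 for Mcm3 to 0.15 for Mcm5, with 3 subunits above 0 and 3 below. The interval of Mcm5 was -0.27 to 0.57 and that of Mcm3 -0.83 to 0.29. Differences inside these intervals are compatible with the values of these arrays, so changes of such sizes are not excluded. Ccne2, cyclin E2, had the lowest difference, -0.48 (-0.99 to 0.03, adjusted p = 0.317). Ube2c, the ubiquitin-conjugating enzyme that works with the anaphase ligase, was above the array median on only 2 arrays of each A1G group. Its difference is therefore not read singly, although it enters the counts, medians and scores of the members.

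**Figure D2:**
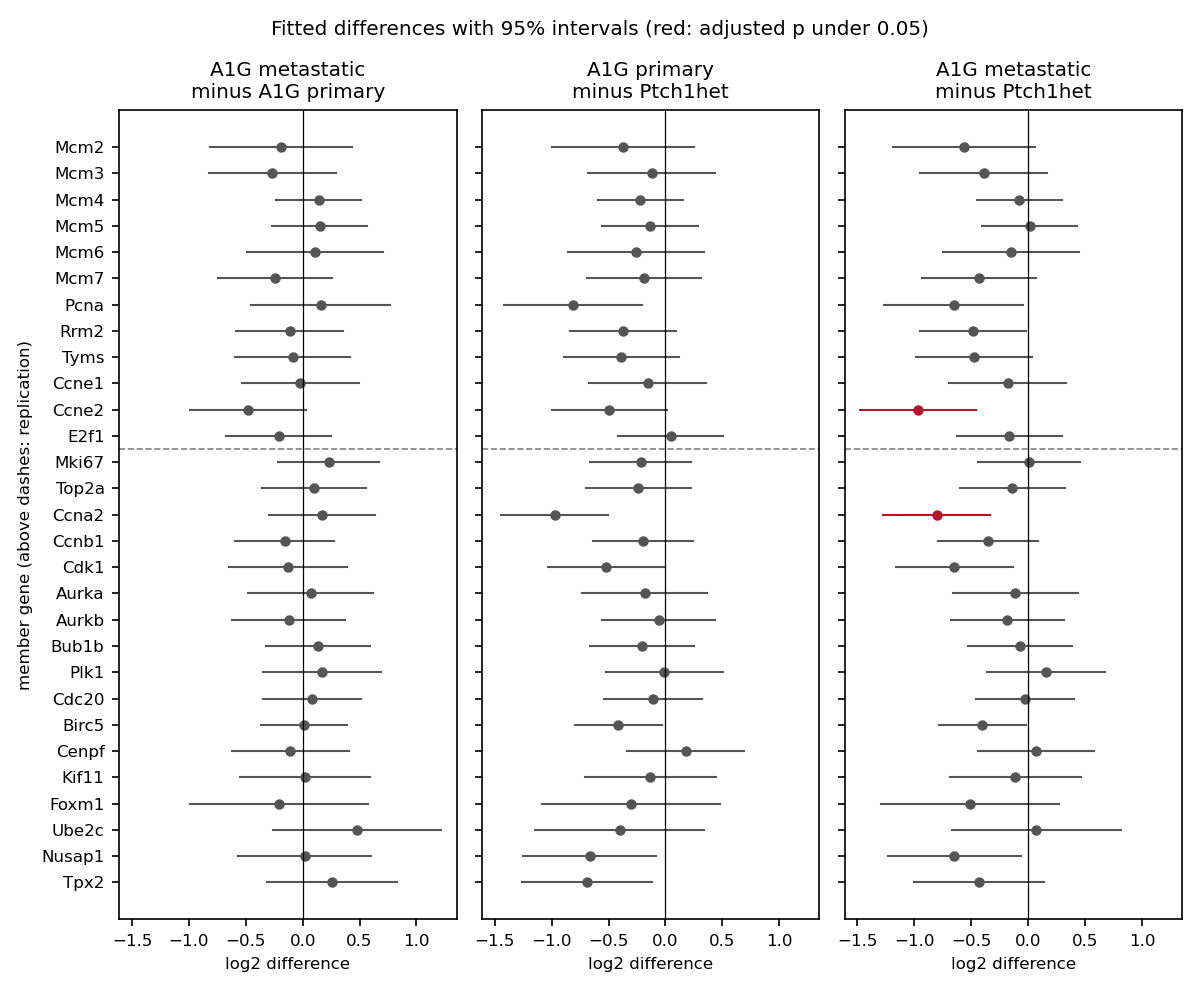
Log2 differences of the 29 measured members in the 3 comparisons, with 95% intervals from limma. Points and intervals in red passed an adjusted p under 0.05, and the rest are grey. Red appears only for Ccne2 and Ccna2, both below 0, in the metastatic against Ptch1het comparison.

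Primary A1G tumours were set against Ptch1het tumours, which are without Math1-cre and A1G. Here 27 of the 29 measured members lay below 0, with 54.6% of all genes below 0, but none passed the test: limma called 0 of 29, beside 0.0359% of all genes. At an unadjusted p under 0.05, 6 of 29 were lower and 0 higher, beside 7.02% of all genes lower and 6.36% higher. Without primary replicate 2 or 4 the count in either direction was 2, and without Ptch1het replicate 1 or 2 it was 3. The median difference was -0.24 over the replication members and -0.22 over the mitosis members, beside -0.03 over all genes, and with 1 array left out they ran from -0.38 to -0.15 and from -0.32 to -0.13. The exceptions above 0 were E2f1, the transcription factor that opens S phase, at 0.05, and Cenpf, a kinetochore protein, at 0.18. Below 0 and without overlap between the groups were 4 members, Pcna, Ccne2, Ccna2 and Tpx2, beside 3.99% of all genes.

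Pcna, the sliding clamp that holds DNA polymerase on its template, read 8.89, 8.42, 9.84 and 8.64 in metastatic tumours, 9.21, 8.39, 8.91 and 8.65 in primary tumours, and 10.01, 9.47, 9.50 and 9.43 in Ptch1het tumours. Every primary array lay below every Ptch1het array, while metastatic replicate 3 lay inside the Ptch1het range. The primary minus Ptch1het difference was -0.81 (SE 0.28, 95% interval -1.42 to -0.20, adjusted p = 0.274). The adjusted p of Pcna was thus far from the threshold although the groups did not overlap.

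Tpx2, a spindle assembly factor that activates the Aurora A kinase, read 10.27, 9.65, 9.94 and 9.63 in primary tumours and 10.91, 10.51, 10.38 and 10.44 in Ptch1het tumours. Every primary array was below every Ptch1het array, with a difference of -0.69 (SE 0.26, adjusted p = 0.311). Nusap1, which bundles spindle microtubules, differed by -0.66 (adjusted p = 0.331), Birc5, the survivin subunit of the chromosomal passenger complex, by -0.41 (adjusted p = 0.345), and Cdk1 by -0.52 (adjusted p = 0.370). Ccna2, given further on with its values, was the sixth member with an unadjusted p under 0.05. The remaining members had unadjusted p-values above 0.05 and included all 6 MCM subunits, from -0.37 for Mcm2 to -0.12 for Mcm3, and Aurkb, the Aurora B kinase, at -0.06 (-0.56 to 0.44).

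Metastatic A1G tumours against Ptch1het tumours differ in both genotype and site, which cannot be told apart here. In this comparison 2 of 29 measured members fell, Ccne2 and Ccna2, and 0 rose, beside 3.68% of all genes called lower and 9.85% called in either direction. At an unadjusted p under 0.05, 7 of 29 were lower and 0 higher, beside 15.1% of all genes lower and 12.5% higher. The count in either direction was 2 without metastatic replicate 2 and 11 without metastatic replicate 1. It was 3 without metastatic replicate 4 or Ptch1het replicate 1. There were 24 members below 0 and 5 above, with 59.4% of all genes below 0. The median difference was -0.41 over the replication members and -0.14 over the mitosis members, beside -0.08 over all genes. With 1 array left out, these medians ran from -0.59 to -0.30 and from -0.24 to -0.04, the range for mitosis reaching past the value over all genes. The groups did not overlap for Ccne2 and Cdk1, both lower, beside 7.98% of all genes lower without overlap.

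Ccne2 encodes cyclin E2, which with Cdk2 drives cells from G1 into S phase. It read 9.77, 8.52, 9.67 and 9.27 in metastatic tumours, 10.01, 9.72, 9.63 and 9.78 in primary tumours, and 10.11, 10.25, 10.55 and 10.19 in Ptch1het tumours. Every Ptch1het array lay above every A1G array, and metastatic replicate 2 was the lowest of the 12. The metastatic mean was 1.96-fold lower than the Ptch1het mean, a difference of -0.97 (SE 0.23, 95% interval -1.48 to -0.46, adjusted p = 0.0224). The primary minus Ptch1het difference was -0.49 (SE 0.23, adjusted p = 0.386). Ccne1, the gene of the other cyclin E, had differences of -0.18 (-0.69 to 0.33) for metastatic minus Ptch1het and -0.16 (-0.67 to 0.36) for primary minus Ptch1het. Whether the cyclins E differ from each other in this was not tested.

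Ccna2 encodes cyclin A2, which acts in S phase and in entry into mitosis. Its signal was 7.10, 7.25, 7.79 and 6.86 in metastatic tumours, 6.95, 7.24, 7.17 and 6.97 in primary tumours, and 8.55, 8.15, 7.75 and 7.77 in Ptch1het tumours. All Ptch1het arrays were above all primary arrays, metastatic replicate 3 overlapped with the Ptch1het arrays, and most A1G values lay close to the array median. The metastatic minus Ptch1het difference was -0.80 (SE 0.22, 95% interval -1.27 to -0.34, adjusted p = 0.0362). The primary minus Ptch1het difference was -0.97 (-1.44 to -0.50, adjusted p = 0.123), measured against primary arrays of which 2 of 4 were above the array median, so its size is not resolved. An adjusted p depends on all genes of its comparison, so these calls do not show that Ccna2 differs between the metastatic and the primary tumours, where the difference was 0.17 (-0.30 to 0.64).

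Cdk1, the partner of the A and B cyclins, read 12.56, 11.56, 12.40 and 11.89 in metastatic tumours, 12.67, 11.86, 12.41 and 11.98 in primary tumours, and 13.04, 12.78, 12.59 and 12.59 in Ptch1het tumours. All metastatic arrays were below all Ptch1het arrays, while primary replicate 1 lay inside the Ptch1het range. The metastatic minus Ptch1het difference was -0.65 (SE 0.24, adjusted p = 0.100). The other members with an unadjusted p under 0.05 were Pcna at -0.65 (adjusted p = 0.151), Rrm2, the small subunit of ribonucleotide reductase, at -0.48 (adjusted p = 0.167), Birc5 at -0.40 (adjusted p = 0.158) and Nusap1 at -0.65 (adjusted p = 0.140). Members near 0 included Mki67 at 0.01 (-0.44 to 0.46), Mcm5 at 0.01 (-0.41 to 0.43) and Cdc20 at -0.03 (-0.46 to 0.40). The interval of Mki67 thus spans a change of about the size seen for several members of this comparison.

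Both calls were sensitive to single arrays and to the samples fitted. The call of Ccne2 was lost without metastatic replicate 4 (adjusted p = 0.0564), without Ptch1het replicate 3 (0.0585), with only metastatic replicates 1 and 4 (0.0655) and with only these groups in the fit (0.0614), and that of Ccna2 without metastatic replicates 1, 2 or 4, primary replicate 3, or Ptch1het replicates 1 or 2 (adjusted p up to 0.101) and with only these groups in the fit (0.0865).

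**Figure D3:**
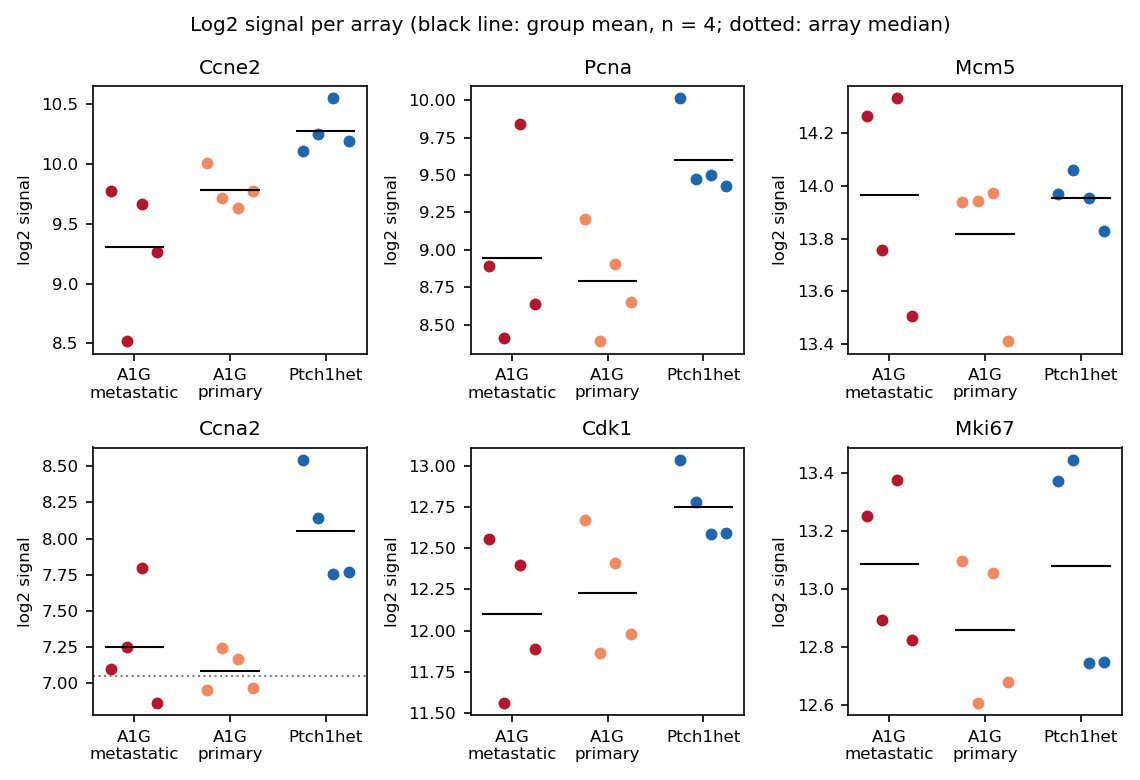
Log2 signal of selected members on every array, with group means as bars. Groups run from metastatic to primary to Ptch1het, with the replicates of each group in order from left to right. Ccne2 on all Ptch1het arrays, 10.11 to 10.55, is above its A1G arrays, while the groups overlap for Mki67.

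The members varied more within the A1G groups than between them, and replicates 1 and 3 had the higher mitosis scores in both. A replication score and a mitosis score were formed for each array as the mean, over the measured members, of the log2 signal minus that gene's mean over the 12 arrays. The replication score was 0.29, -0.58, 0.12 and -0.45 in metastatic replicates 1 to 4, 0.27, -0.12, -0.13 and -0.28 in primary replicates 1 to 4, and 0.37, 0.28, 0.12 and 0.13 in Ptch1het replicates 1 to 4. In the same order the mitosis score was 0.15, -0.33, 0.33 and -0.39 in metastatic, 0.14, -0.34, 0.12 and -0.40 in primary, and 0.30, 0.27, 0.04 and 0.11 in Ptch1het tumours. All Ptch1het arrays had both scores above 0, while the A1G groups held arrays on either side. The replication score averaged -0.16 ± 0.42 in metastatic, -0.07 ± 0.23 in primary and 0.22 ± 0.12 in Ptch1het tumours (SD, n = 4 each). Means of the mitosis score were -0.06 ± 0.36, -0.12 ± 0.29 and 0.18 ± 0.13 in metastatic, primary and Ptch1het tumours. The metastatic and primary means thus differed by less than the spread within either group.

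The split inside the A1G groups ran through most measured members, but not through the replication members of the primary group. Set against the mean of their own group, 24, 0, 27 and 0 of 29 members were above it in metastatic replicates 1 to 4, 27, 5, 20 and 0 in primary replicates 1 to 4, and 19, 18, 6 and 8 in Ptch1het replicates 1 to 4. Across all genes tested, between 43.7% and 55.1% lay above the group mean on any array. Metastatic replicates 2 and 4 and primary replicate 4 therefore had every measured member below the group mean. In the primary group 4 of 12 replication members were above the mean in replicate 2 and likewise 4 of 12 in replicate 3, so that replicate 3 stood out there only by its mitosis members, 16 of 17 above the mean. Same-numbered metastatic and primary arrays deviated together over all genes, with correlations of 0.17 to 0.45, and differently numbered ones correlated at -0.31 to 0.17. Metastatic replicate 2 correlated as closely with primary replicate 4 as with primary replicate 2, at 0.17 each. Because all same-numbered correlations were above 0.1, differences were also taken within each number. This cut does not set same-numbered arrays apart, since metastatic replicate 4 and primary replicate 2 also correlated at 0.14. Pairing of the arrays is thus not established. Members higher in the metastatic array numbered 14, 10, 20 and 13 of 29 for numbers 1 to 4. Metastatic minus primary, the mitosis score differed by 0.01, 0.01, 0.21 and 0.01 within numbers 1 to 4, and the replication score by 0.02, -0.46, 0.25 and -0.16. The mitosis score was thus nearly equal within 3 of the 4 numbers, and the replication score differed in sign between numbers.

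Replication and mitosis scores did not always move together. In replicate 3 of both A1G groups the replication score was lower than the mitosis score, by -0.21 in the metastatic and -0.25 in the primary array. In replicate 2 the same difference was -0.25 in the metastatic and 0.22 in the primary array. On the primary array of number 3, Ccnb1 (cyclin B1) and Cenpf had their highest A1G values, 12.75 and 9.96. Replication members went both ways there, with 4 of 12 above the group mean. Mcm2 at 12.21 was the lowest of the primary group, and Mcm4 at 14.19 and Mcm5 at 13.97 were the highest. In a tumour sample, fewer dividing cells and less of these RNAs per cell cannot be told apart.

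**Figure D4:**
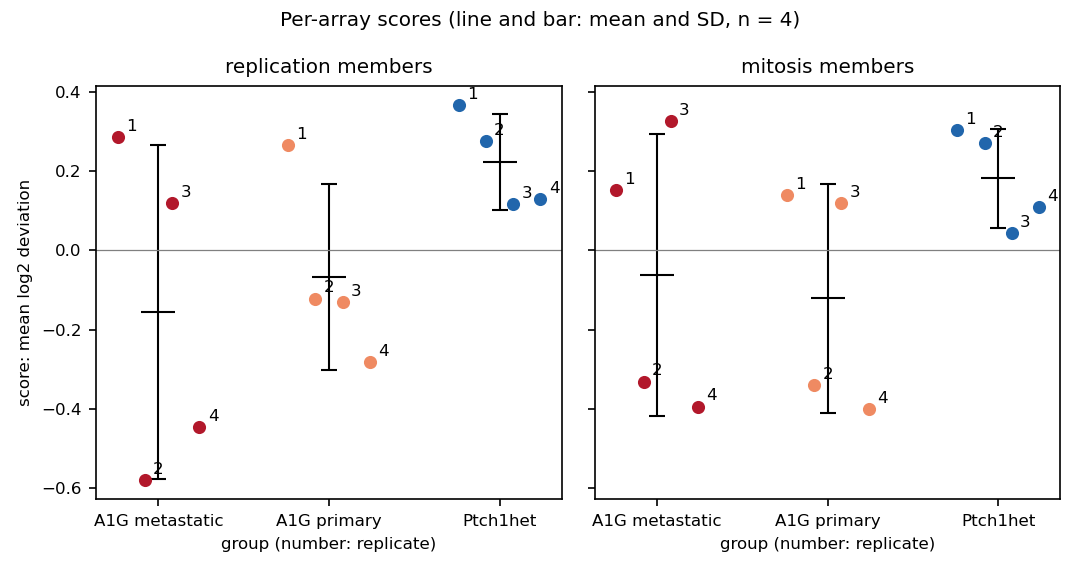
Replication score and mitosis score of each array, by group from metastatic to primary to Ptch1het, with replicate numbers at the points and the group mean as a bar. A1G replicates 2 and 4 lie at or below -0.33 on the mitosis score, and the Ptch1het arrays lie between 0.04 and 0.30.

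Markers of differentiated granule neurons, of which 10 of 14 were measured, moved against the mitosis score inside each group. Their mean log2 signal was 9.33, 10.20, 9.78 and 10.57 in metastatic replicates 1 to 4, 10.28, 10.88, 10.59 and 11.64 in primary replicates 1 to 4, and 10.16, 9.55, 10.88 and 11.10 in Ptch1het replicates 1 to 4. In each group the pair of arrays with the lower granule neuron mean was the pair with the higher mitosis score. Their part in the scores was not tested. Granule progenitor markers, 9 of 11 measured without Atoh1 and Gli1, had a mean between 10.47 and 10.83 in metastatic, 10.76 and 10.79 in primary and 10.69 and 10.84 in Ptch1het tumours. This mean hides single markers that moved in opposite directions. For metastatic minus Ptch1het, limma called Hhip lower, at -1.22 (adjusted p = 0.00132), and Sfrp1 higher, at 0.61 (adjusted p = 0.0364). Of all genes 3.68% were called lower and 6.17% higher. For primary minus Ptch1het 0 of 9 were called, with Hhip at -0.98 (adjusted p = 0.0946) and Barhl1 at 0.49 (adjusted p = 0.364).

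Markers of Schwann cells, peripheral neurons and fibroblasts were higher in every metastatic array than in any other. Mean log2 signal in metastatic, primary and Ptch1het tumours spanned 10.11 to 10.63, 7.65 to 7.88 and 7.48 to 7.83 for Schwann cells (10 of 10 measured), and 10.18 to 11.48, 6.69 to 7.18 and 6.66 to 7.40 for peripheral neurons (10 of 11). For fibroblasts (12 of 12) the spans were 10.95 to 11.11, 8.32 to 9.18 and 8.45 to 9.12. Skeletal muscle markers (6 of 7) read 12.20, 12.92, 7.86 and 10.74 in metastatic replicates 1 to 4, against 6.99 to 7.91 in the 8 primary and Ptch1het tumours. The muscle mean of metastatic replicate 3 was below that of Ptch1het replicate 2, 7.91, and above those of all other primary and Ptch1het arrays. Among the metastatic arrays, replicate 2 had the highest muscle mean and the lowest replication score, -0.58. Replicate 3 had the lowest muscle mean and the highest mitosis score, 0.33. Replicate 1, at 12.20, had the highest replication score, 0.29, and replicate 4, at 10.74, the lowest mitosis score, -0.39. The part of other cell types in the member values was not tested.

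The rest of the cycle was read from wider lists. Of 43 other replication genes, 38 were measured, and limma called 0 of 38 in each of the 3 comparisons. Of all genes, 5.22% were called for metastatic minus primary, 0.0359% for primary minus Ptch1het and 9.85% for metastatic minus Ptch1het. At an unadjusted p under 0.05, 0, 5 and 9 of 38 were lower in the same order, and 0 were higher in any. Among all genes 8.23%, 7.02% and 15.1% were lower and 9.52%, 6.36% and 12.5% higher. Their median difference was 0.02 for metastatic minus primary, -0.21 for primary minus Ptch1het and -0.22 for metastatic minus Ptch1het, with 17, 32 and 33 of 38 below 0. Largest for metastatic minus primary were the differences of Rfc3 at -0.40, E2f2 at 0.37 and Dut at -0.36, and for primary minus Ptch1het those of Rfc4, Gins3 and Mcm10, each at -0.49. None of these passed the test, with adjusted p-values from 0.354 to 0.570. Largest for metastatic minus Ptch1het were Rfc3 at -0.57 (adjusted p = 0.124) and Rfc5 at -0.55 (adjusted p = 0.0513), both subunits of the clamp loader that puts Pcna onto DNA. Orc6, of the origin recognition complex, differed by -0.52 (adjusted p = 0.0730).

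Of 57 other mitosis genes, 52 were measured, and limma called 0 in metastatic minus primary, 0 in primary minus Ptch1het and 2 in metastatic minus Ptch1het, both lower. Of all genes 5.22%, 0.0359% and 9.85% were called in the same order, and the 2 called lower stand beside 3.68% of all genes called lower. At an unadjusted p under 0.05, 2, 6 and 9 of 52 were lower and 0, 0 and 1 higher. Among all genes 8.23%, 7.02% and 15.1% were lower and 9.52%, 6.36% and 12.5% higher. Those called were Racgap1, a component of the centralspindlin complex of cytokinesis, at -0.58 (adjusted p = 0.0200, above the array median on 2 of 4 metastatic arrays), and Spc25, of the kinetochore complex that binds microtubules, at -0.64 (adjusted p = 0.0422). Mad2l1, the spindle checkpoint protein Mad2, differed by -0.91 for metastatic minus Ptch1het (adjusted p = 0.0640) and by -0.89 for primary minus Ptch1het (adjusted p = 0.252). Cenpk and Kif18a followed at -0.67 and -0.56 for primary minus Ptch1het (adjusted p = 0.312 and 0.402), and Cdca3 at -0.66 for metastatic minus Ptch1het (adjusted p = 0.0829). For metastatic minus primary the largest differences were those of Melk at -0.65, Ckap2 at -0.56 and Ect2 at -0.45, with adjusted p-values of 0.222 to 0.381. The list's median differences were -0.01, -0.26 and -0.30 for metastatic minus primary, primary minus Ptch1het and metastatic minus Ptch1het, with 28, 47 and 45 of 52 below 0.

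Among 20 inhibitors of the cycle, 17 were measured, and limma called 0 of 17 in each comparison, with medians of -0.09, -0.05 and -0.21 in the same order. Of all genes 5.22%, 0.0359% and 9.85% were called. At an unadjusted p under 0.05, 1, 2 and 3 of 17 were lower, beside 8.23%, 7.02% and 15.1% of all genes. In the same order 1, 0 and 0 were higher, beside 9.52%, 6.36% and 12.5% of all genes. Cdkn1b, the Cdk inhibitor p27, was lowest in metastatic minus primary at -0.84 (adjusted p = 0.0860) and differed by -0.78 for metastatic minus Ptch1het (adjusted p = 0.0726). Cdkn2b, the Cdk inhibitor p15, and Cdkn2d, p19, differed by 0.82 and -0.31 for metastatic minus primary (adjusted p = 0.187 and 0.318), and Cdkn2b by -0.65 for primary minus Ptch1het (adjusted p = 0.392). Cdkn1c, the Cdk inhibitor p57, differed by -0.92 for metastatic minus Ptch1het (adjusted p = 0.233) and by -1.15 for primary minus Ptch1het (adjusted p = 0.343). Cdkn2a, the locus of p16 and p19Arf, differed by -1.10 for metastatic minus Ptch1het (adjusted p = 0.129) and by -0.99 for primary minus Ptch1het (adjusted p = 0.363). For primary minus Ptch1het the inhibitors lay on both sides of 0, with 8 above and 9 below and a median close to the -0.03 of all genes. For metastatic minus Ptch1het 13 of 17 were below 0, beside 59.4% of all genes.

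Different probes of a member did not always point the same way. Several kept probes were at hand for 15 measured members, and their signs disagreed for 6 in metastatic minus primary, 7 in primary minus Ptch1het and 4 in metastatic minus Ptch1het. For primary minus Ptch1het, Mcm7 differed by -0.19 on the probe used and by 0.68 on its other probe, and Mcm4 by -0.22 on the probe used and by 0.34 and 0.61 on the others. Rrm2 (-0.37, -0.45 and -0.70) and Cdk1 (-0.52, -0.31 and -0.26) had the same sign on all their probes. The other Cdk1 probes averaged 7.12 and 7.17, also close to the array median. Little can be read from the signs of such dim probes. With the probes of each gene averaged, 23 of 29 members lay below 0 for primary minus Ptch1het, in place of 27. Ccne2, Ccna2, Pcna and Tpx2 rest on 1 probe each.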

How the data were processed

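RNA of 12 mouse tumours was labelled as biotinylated cRNA and hybridised to Illumina BeadChips, per the labels' protocols. For 45281 probes the deposited file holds linear intensity values, which the authors had already brought to a common array median of 187, as the values show; how they did so is not given in the sources used. A further deposited table has 24 per-array columns named by chip position; they match no label and were not used, so detection p-values and chip were not used here.

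From the deposited intensity, limma 3.58.1 (R 4.3.3) gave log2 signals after normexp correction (offset 50) and quantile normalization. Probes above their array's median on at least 4 of 12 arrays were kept (24443 probes), and the probe with the highest mean stood for its gene. Symbols were updated through RefSeq names (27740 current, 8037 by synonym, 9504 kept as deposited); Cdk1 was found under an older symbol. One limma model (lmFit, eBayes) of the 3 groups was fitted to the 12 arrays, with Benjamini-Hochberg adjustment over 16724 genes. It was tested on simulated data whose planted changes were larger than any member difference reported here, so differences of the members' size were not covered. All members are named; of each other cell cycle list, the called genes (at most 6 by smallest p) and the 3 of largest difference in each comparison. The members and lists were chosen with earlier results of these data known.

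After removal of group means, same-numbered metastatic and primary arrays correlated over genes at 0.45, 0.17, 0.21 and 0.27, and differently numbered ones at -0.31 to 0.17. The numbers were also taken as pairs there, which these overlapping values do not establish. With Ptch1het arrays, same-numbered correlations ran from -0.07 to 0.34 and differently numbered ones from -0.23 to 0.23. Alternatives covered background correction, normalization, filter, probe choice, array weights, replicate block and omitted arrays.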

Additional observations from a re-analysis of the deposited data

Results flagged for a closer look

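In groups of 4 arrays, 1 array stood apart from the other three (Dixon's test at its 95% value) in 6 of 129 groups of values tested; chance flags about 1 in 20 groups. Of the members, Mcm5 read 13.41 in A1G primary replicate 4, with the other primary arrays at 13.94 to 13.97. Pcna read 10.01 in Ptch1het replicate 1, with the other Ptch1het arrays at 9.43 to 9.50. Among the mean log2 levels of marker lists, oligodendrocyte markers stood at 12.11 in A1G metastatic replicate 4 (others 9.82 to 10.16) and microglia markers at 10.89 on the same array (others 10.62 to 10.66). Muscle markers stood at 7.91 in Ptch1het replicate 2 (others 7.19 to 7.29), and granule progenitor markers at 10.76 in A1G primary replicate 2 (others at 10.79).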

How the results depend on the processing

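Under every alternative run, 0 members were called in metastatic minus primary and in primary minus Ptch1het, and no called value reversed. Members called in metastatic minus Ptch1het were 2 in the reported fit, 1 with probes above the median on all 12 arrays (Ccna2 then untested), 0 with only the groups compared, and 1 with only metastatic replicates 1 and 4 (Ccna2). Leaving out 1 array gave 0 to 4: 0 without metastatic replicate 4, and 4 without metastatic replicate 3, which adds Pcna (adjusted p = 0.0193) and Tpx2 (0.0349). Without metastatic replicate 1, Mcm2 was called (0.0359) and Ccna2 was not. Averaging the probes of a gene added Rrm2 (0.0468). Genes called in metastatic minus primary were 873, against 428 with the stricter filter, 1339 with array weights and 425 with only metastatic replicates 1 and 4, and 605 to 963 without 1 array. For primary minus Ptch1het they were 6, 3 with the stricter filter, and 4 to 60 without 1 array (60 without Ptch1het replicate 4). For metastatic minus Ptch1het they were 1647, 1042 with only the groups compared, 601 with only metastatic replicates 1 and 4, and 791 to 1645 without 1 array (791 without metastatic replicate 2). With the replicate block over all 12 arrays, the genes called were 970, 6 and 1895 and the members 0, 0 and 3, the third being Cdk1 (0.0330); over the 8 A1G arrays alone the replicate block gave 1462 genes and 0 members. The pairing changed no other call of a member. The A1G-only block and the fit with metastatic replicates 1 and 4 were chosen after seeing the data. Averaged over probes, Mcm4 and Mcm7 in primary minus Ptch1het turned to 0.24 and 0.25, Top2a in metastatic minus Ptch1het to 0.33 and Mcm4 in metastatic minus primary to -0.33; none of these was called. The causes of these changes were not tested. Probes near the array median limit what can be read of Ccna2 and Ube2c, and of Mcm4 averaged over its probes.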
